A study of Mus musculus with 6 samples.

Results

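The core circadian clock genes are the 10 genes Arntl, Clock, Per1, Per2, Per3, Cry1, Cry2, Nr1d1, Nr1d2 and Dbp, taken by their symbols from a table of 24411 genes. All 10 were found in the table, and all 10 were among the 12892 genes with enough counts to be tested. The RNA came from a fast-twitch muscle of the lower leg, extensor digitorum longus (EDL), of 3 mAktDKO and 3 control floxed mice. The mAktDKO mice carried floxed Akt1 and Akt2 together with Mlc1f-Cre. The control floxed mice carried the same floxed Akt1/2 alleles without the Cre. Both groups were C57BL/6J and 50 weeks old. As a model, the knockout is limited to cells that express the myosin light chain gene Mlc1f, into which the Cre was knocked in. The methods of the study describe housing with light and dark phases of equal length and place its experiments on freely fed mice at the onset of light. Whether that covers these muscles, and the clock time at which each was removed, is not given in the sources used here. Values are therefore given for each mouse, and a difference in genotype and a difference in collection time between the groups cannot be told apart.

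The circadian clock is a feedback loop of transcription that runs in nearly every cell, muscle fibres included. ARNTL (also called BMAL1) and CLOCK form a dimer that binds E-boxes and activates the Per and Cry genes, whose proteins return to the nucleus and inhibit the dimer. The same dimer activates Nr1d1 and Nr1d2, which encode the nuclear receptors REV-ERB alpha and beta, and these repress Arntl at ROR response elements (RORE). Dbp encodes a transcription factor that carries the rhythm to other genes through D-boxes. In skeletal muscle the messages of Dbp, Nr1d1 and the Per genes rise and fall over the day, and Arntl runs nearly opposite to them, so a single time point shows a phase as well as a level.

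These elements were looked up in the promoter windows of the members, and the stretches that hold them are shown so that the letters of the elements named above can be seen. The windows run from 250 bases before to 50 bases after a transcription start and come from RefSeq on GRCm38.p6, the same assembly as mm10. The table gave 13 windows for 9 of the members, all but Per2. The search took both strands and used the E-box CACGTG, its variant CACGTT, the D-boxes TTATGTAA and TTACGTAA, and the RORE cores TAGGTCA and TGGGTCA. It made 8 matches, of which 0 overlapped another, and capitals mark them below. Each stretch is read 5′ to 3′ on the strand of its gene. Per3 is shown at chr4:151044796-151044890 (minus strand), Cry1 at chr10:85185089-85185153 (minus) and Per1 at chr11:69098763-69098808 (plus). Nr1d1 is shown at chr11:98775380-98775425 (minus), Cry2 at chr2:92434210-92434255 (minus) and Arntl at chr7:113207531-113207560 (plus).
Per3: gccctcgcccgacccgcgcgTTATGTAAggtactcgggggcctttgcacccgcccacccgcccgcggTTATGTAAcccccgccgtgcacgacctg
Cry1: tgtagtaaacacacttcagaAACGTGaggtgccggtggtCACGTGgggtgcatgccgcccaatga
Per1: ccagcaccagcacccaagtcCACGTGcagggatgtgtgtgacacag
Nr1d1: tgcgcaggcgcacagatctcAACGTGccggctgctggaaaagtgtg
Cry2: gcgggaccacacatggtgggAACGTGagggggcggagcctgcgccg
Arntl: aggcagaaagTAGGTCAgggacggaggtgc

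The E-box CACGTG stood at position -60 of Cry1 and -166 of Per1, counted from the start site, and was found in 7.15% of all 32851 windows. Its variant, printed on the opposite strand as AACGTG, stood at -79 of Cry1, -166 of Cry2 and -28 of Nr1d1, against 4.68% of all windows. Per3 held the D-box TTATGTAA at -205 and again at -158, and 0.938% of all windows hold that sequence. The RORE core TAGGTCA stood at position 31 after a start of Arntl, and 2.61% of windows hold it. The other D-box (0.119% of windows) and the other RORE core (3.98%) were in 0 windows of the members, and the windows of Clock, Nr1d2 and Dbp held none of the sequences. A match is a description of the letters and not of binding.

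Total counts were between 13738795 and 15445523 per mouse, and a gene at 3 counts lay at 0.180 to 0.227 CPM (counts scaled to the library size and by TMM), a floor that covers counting error only. The lowest count of any member was 39 (Per2 in control mouse 2). The labels were checked with the targeted genes. Akt2 was at 51.3, 49.1 and 52.7 CPM in mAktDKO, and the controls were at 172, 133 and 143 CPM (log2 fold change -1.55, SE 0.11, adjusted p = 0.000923, edgeR). Akt1 was at 58.9, 56.8 and 51.4 against 66.4, 65.5 and 66.5 CPM (-0.25, SE 0.08, adjusted p = 0.115), and its count takes in all exons, whichever were deleted. All 10 markers of fast fibres, the fibre type of EDL, were detected in every mouse. Control mouse 2 stood apart from the other mice over the whole table: it was the highest of the 6 for 29.0% of tested genes and the lowest for 28.7%.

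None of the core clock genes differed between the genotypes at an adjusted p under 0.01 over all tested genes in edgeR's quasi-likelihood test. The count was 0 of 10, beside 3 of all 12892 genes (0.0233%), and it was also 0 at an adjusted p under 0.05, which 1.18% of all genes passed. At an unadjusted p under 0.05 there were 3 members, Clock above the controls and Cry2 and Dbp below them. Over all genes 24.5% passed that level, 11.4% higher and 13.1% lower in mAktDKO, so 3 of 10 is near the background. The Wald test of DESeq2 called 330 of all genes (2.56%) and 0 of the members, but it gave no adjusted p for Per2 and Dbp, so these were not decided by it. At an unadjusted p under 0.05 it also had 3 members, against 19% of all genes. The same genes, 1 higher and 2 lower, were those whose mAktDKO mice all lay on one side of all controls, which held for 14.6% of all genes in the higher and 16.6% in the lower direction. The median log2 fold change of the members was 0.05, beside 0.02 over all tested genes. In RNA of a whole muscle, fewer cells of a type and less RNA per cell cannot be told apart. The labels give each sample as a separate one and no more, so the p-values measure the spread between these samples.

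**Figure D1:**
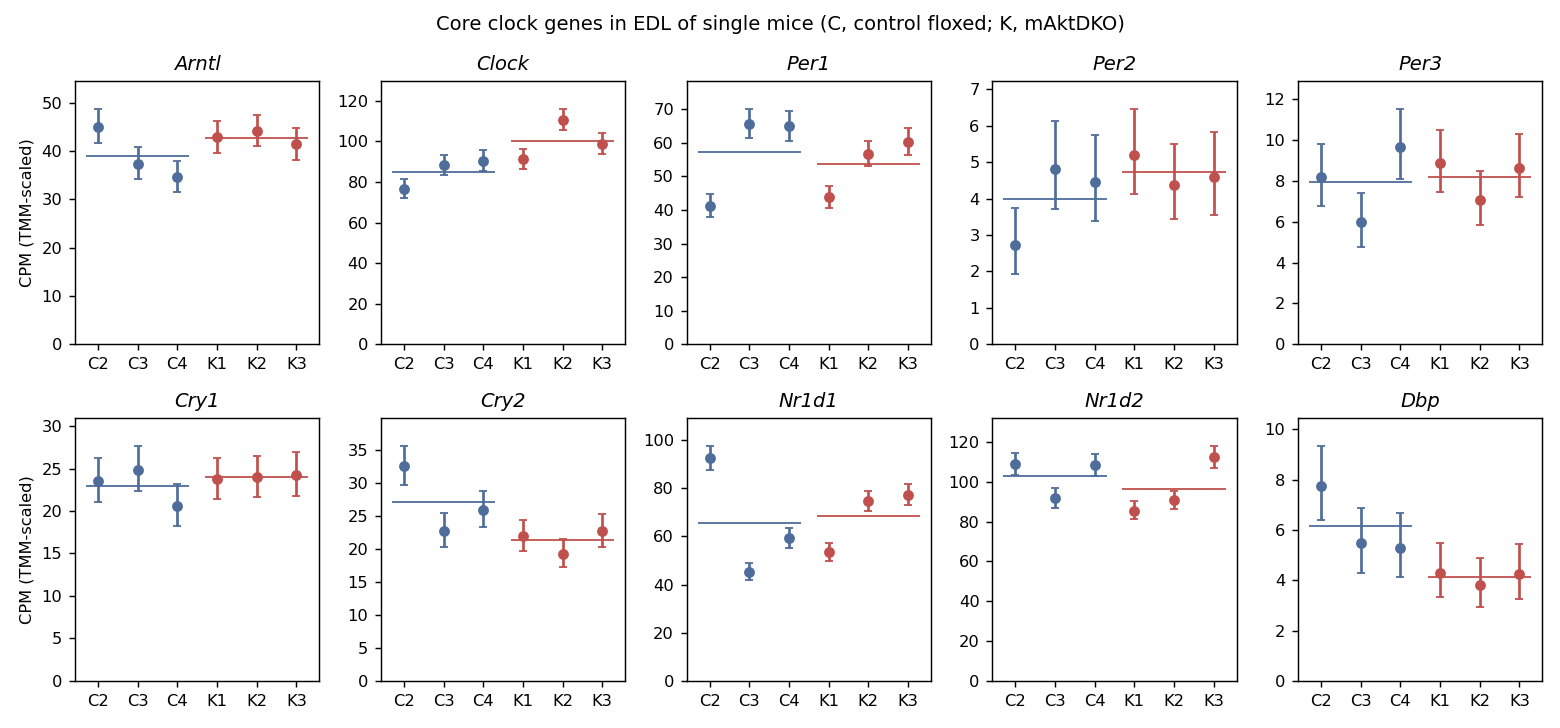
TMM-scaled CPM of each core clock gene (y axis, from 0) in each mouse (x axis; C2 to C4, control floxed; K1 to K3, mAktDKO). Points are single mice, bars the 95% Poisson interval of the count (counting error only) and lines the group means. The 3 mAktDKO mice lay below all controls for Dbp and Cry2 and above them for Clock, while Nr1d1 ranged from 45.3 to 92.5 CPM among the controls alone.

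The activators were examined first. Clock, on chromosome 5, was at 91.2, 111 and 98.9 CPM in mAktDKO mice 1 to 3 and at 76.6, 88.3 and 90.3 CPM in control mice 2 to 4. The mAktDKO mice were all above the controls, but mouse 1 exceeded control 4 by less than the counting interval of either. Group means were 100.3 ± 9.80 CPM in mAktDKO and 85.1 ± 7.41 CPM in the controls (SD, n = 3 each), and the log2 fold change was 0.24 (SE 0.10, 95% interval 0.01 to 0.46, adjusted p = 0.188, edgeR). Without mAktDKO 2 the log2 fold change of Clock was 0.16, and without mAktDKO 1 it was 0.30. Arntl, on chromosome 7, was at 42.8, 44.1 and 41.3 CPM in mAktDKO and at 45.0, 37.4 and 34.6 CPM in the controls. Control 2 was the highest of all mice for Arntl, and the other controls lay below every mAktDKO mouse. The log2 fold change was 0.13 (SE 0.11, 95% interval -0.11 to 0.37, adjusted p = 0.461, edgeR), and it was 0.25 without control 2 and 0.05 without control 4. The 3 mAktDKO mice were close together, with an SD of 1.37 CPM beside 5.42 CPM in the controls.

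The Per genes encode the PERIOD proteins, partners of the cryptochromes in the repressor complex. Per1, on chromosome 11, was at 43.8, 56.7 and 60.2 CPM in mAktDKO and at 41.2, 65.6 and 64.9 CPM in the controls. In each group 1 mouse was low, mAktDKO 1 and control 2, and the groups overlapped (log2 fold change -0.09, SE 0.18, adjusted p = 0.777, edgeR). Per2, on chromosome 1, was at 5.20, 4.37 and 4.59 CPM against 2.73, 4.81 and 4.46 CPM. These values stand on 39 to 82 counts, and control 2 alone set the lower mean of the controls. The log2 fold change was 0.24 (SE 0.22, 95% interval -0.27 to 0.75, adjusted p = 0.525, edgeR), and it was 0.02 without control 2 and 0.40 without control 3. Per3, on chromosome 4, whose promoter holds both D-boxes shown above, was at 8.88, 7.07 and 8.64 CPM against 8.18, 5.98 and 9.68 CPM. Its lowest and its highest mouse were both controls, and the log2 fold change was 0.04 (SE 0.19, adjusted p = 0.906, edgeR).

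The cryptochromes inhibit the CLOCK and ARNTL dimer directly. Cry1, on chromosome 10, had the smallest SD within groups of the members on the log2 scale (0.10). It was at 23.7, 24.0 and 24.3 CPM in mAktDKO and 23.6, 24.9 and 20.6 CPM in the controls. The groups overlapped (log2 fold change 0.06, SE 0.10, 95% interval -0.16 to 0.28, adjusted p = 0.730, edgeR). Cry2, on chromosome 2, was at 22.0, 19.3 and 22.7 CPM in mAktDKO and at 32.5, 22.8 and 25.9 CPM in the controls. The groups were apart by a margin far smaller than the counting error, since mAktDKO 3 and control 3 had 331 and 312 counts, and control 2 was well above the rest. Group means were 21.3 ± 1.80 CPM in mAktDKO and 27.1 ± 4.97 CPM in the controls (SD, n = 3 each), and the log2 fold change was -0.35 (SE 0.14, 95% interval -0.66 to -0.03, adjusted p = 0.170, edgeR). Without control 2 it was -0.19, and with DESeq2 size factors or library totals in place of TMM the groups of Cry2 overlapped.

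Nr1d1 and Nr1d2, the REV-ERB genes, close the second loop of the clock. Nr1d1, on chromosome 11, was at 53.5, 74.7 and 77.3 CPM in mAktDKO and at 92.5, 45.3 and 59.3 CPM in the controls. The highest and the lowest mouse were both controls, and the mAktDKO mice lay between them. The log2 fold change was 0.06 (SE 0.24, 95% interval -0.48 to 0.60, adjusted p = 0.900, edgeR). Its SD within groups, 0.42 on the log2 scale, was larger than that of 90.6% of tested genes, and its biological coefficient of variation was 0.210 where the trend at its level was 0.111. Nr1d2, on chromosome 14, was at 85.5, 90.8 and 112 CPM against 109, 91.7 and 108 CPM. The range of the controls lay inside that of mAktDKO, with a log2 fold change of -0.10 (SE 0.12, 95% interval -0.37 to 0.17, adjusted p = 0.633, edgeR). It was -0.24 without mAktDKO 3 and -0.02 without mAktDKO 1.

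Dbp, on chromosome 7, had the largest difference of the members on the log2 scale. It was at 4.31, 3.83 and 4.25 CPM in mAktDKO and at 7.76, 5.47 and 5.29 CPM in the controls. Every mAktDKO mouse was below every control, and control 2 was again the farthest from the others. Group means were 4.13 ± 0.260 CPM in mAktDKO and 6.17 ± 1.38 CPM in the controls (SD, n = 3 each), and the log2 fold change was -0.58 (SE 0.19, 95% interval -1.01 to -0.16, unadjusted p = 0.0128, adjusted p = 0.116, edgeR), so it did not pass the threshold. An exact two-sided permutation test gave p = 0.1, the smallest that 3 mice against 3 allow. The counts behind these values were 62 to 68 in mAktDKO and 70 to 111 in the controls, and the Poisson intervals of mAktDKO 1 and control 4 overlapped. Leaving out 1 mouse at a time gave log2 fold changes between -0.68 and -0.38 with adjusted p between 0.0881 and 0.339 (edgeR), and the smallest difference, -0.38, was the one without control 2.

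**Figure D2:**
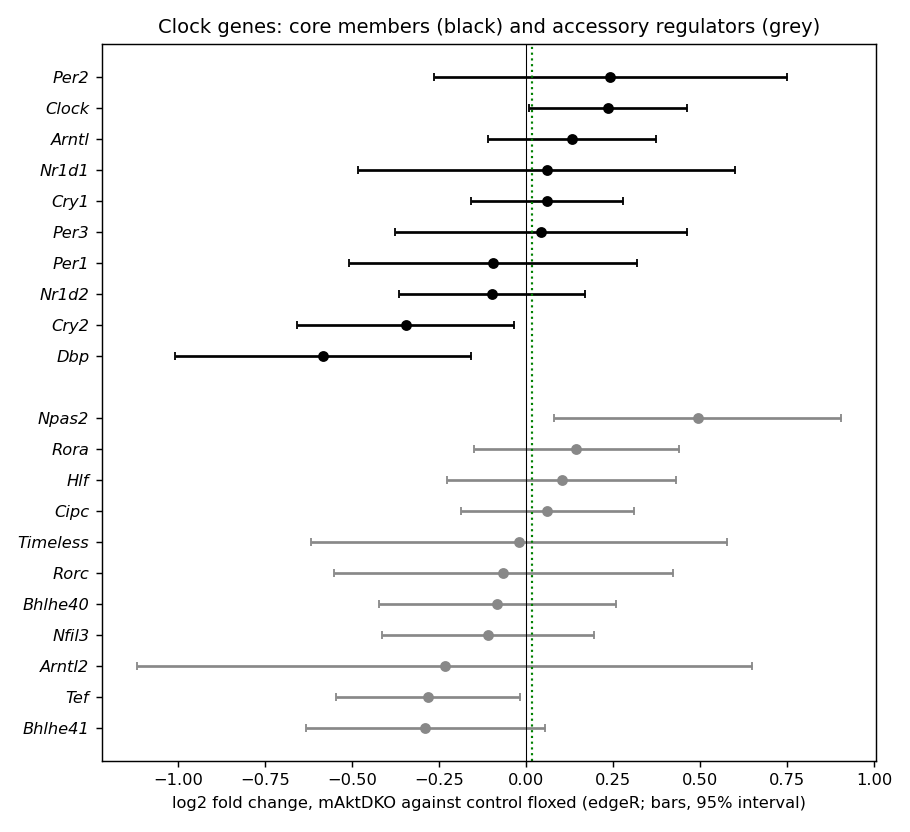
Log2 fold change of mAktDKO against control floxed (x axis) for the 10 core clock genes (black) and the 11 tested accessory clock regulators (grey). Points are estimates of edgeR, bars the 95% interval, and the dotted line the median of all tested genes, 0.02. The intervals of Clock, Cry2, Dbp, Npas2 and Tef leave out 0 before adjustment, and the adjusted p of Dbp, the smallest of the members, was 0.116.

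Exons of 4 members overlap exons of other genes on the opposite strand, whose reads could enter the counts if the strand was not used. The library kit keeps the strand, and whether the counting used it is not given in the sources used here. In the GENCODE annotation of the same assembly, exons of Dbp share 539 bases with exons of Sphk2 on the opposite strand, and exons of Nr1d1 share 263 bases with those of Thra. On the log2 scale Sphk2 differed by -0.32 (adjusted p = 0.130, edgeR) and Thra by -0.22 (adjusted p = 0.130, edgeR). Arntl and Cry2 share 33 and 149 bases with the untested antisense transcripts Gm45355 and D930015M05Rik. The part of these overlaps in the counts was not tested.

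The mice were then compared with each other, since each could have its own phase. Control mouse 2 departed most from the mean of the 6 mice: its deviations averaged 0.318 in size on the log2 scale over the members, beside 0.126 to 0.193 in the other mice. It was the highest mouse for 4 members (Arntl, Cry2, Nr1d1 and Dbp) and the lowest for 3 (Clock, Per1 and Per2). Its deviations were 0.62 for Dbp, 0.50 for Nr1d1, 0.44 for Cry2, -0.40 for Per1 and -0.63 for Per2. Dbp and Nr1d1 were thus high in a mouse in which Per1 and Per2, which share their activator, were low. The same mouse also departed most over all genes, by 0.286 beside 0.162 to 0.208 in the others, and the part of that in the members was not tested. Control mice 3 and 4 differed from each other most in Per3, with deviations of -0.41 and 0.28, and in Nr1d1, with -0.52 and -0.14. Among the mAktDKO mice, mouse 1 was below the others in Per1 (-0.31) and Nr1d1 (-0.28) and above them in Per2 (0.27).

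**Figure D3:**
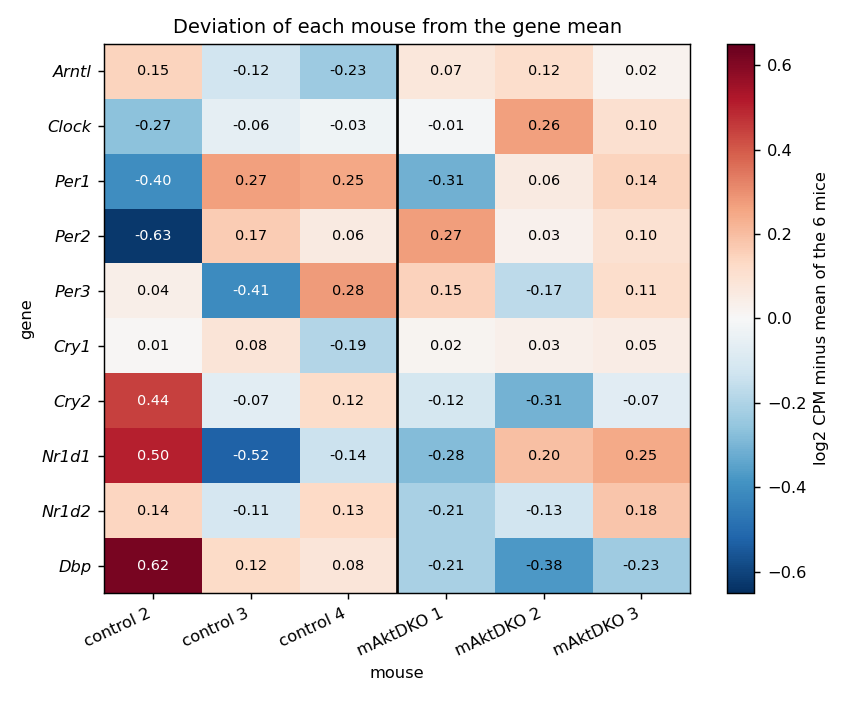
Log2 CPM of each core clock gene (rows) in each mouse (columns) minus the mean of the 6 mice, with the value written in each cell and red above, blue below the mean. The column of control 2 holds the strongest colours, from -0.63 for Per2 to 0.62 for Dbp, and the row of Cry1 the weakest.

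The members were also compared without control mouse 2. Those whose groups did not overlap were then 5 in place of 3, namely Arntl and Clock above and Per1, Cry2 and Dbp below the remaining controls, where 38.7% of all genes did not overlap. In this fit the members with an unadjusted p under 0.05 were 4, Arntl (0.25), Nr1d1 (0.39), Per1 (-0.29) and Dbp (-0.38, log2 fold changes), beside 2531 of the 13138 genes tested in it, and Clock (0.17) and Cry2 (-0.19) were no longer among them. The lowest adjusted p of a member was then 0.155 (edgeR), and the number called stayed at 0. Without another mouse, 3 or 4 members did not overlap, against 35.8% to 44.5% of all genes. Cry2 and Dbp were among them each time. Clock overlapped and Nr1d2 did not without mAktDKO 3, and Cry1 was added without control 3.

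Ratios between members within a mouse do not depend on the scaling between libraries, apart from the prior count of 2 in log2 CPM. All 45 pairs were formed as differences of log2 CPM, as a description without a test. The groups did not overlap in 10 pairs, of which 7 held Dbp (of the 9 pairs that hold it) and 3 held Cry2, with the pair of Cry2 and Dbp in both counts. Over all pairs of tested genes 28% did not overlap, and over all pairs of Dbp with a tested gene 69.2%. The counts of all pairs and of the pairs with Dbp are thus near the background, and no such share was formed for Cry2. The log2 ratio of Arntl to Dbp, genes that peak at nearly opposite times of day, was 3.27, 3.48 and 3.24 in mAktDKO and 2.52, 2.74 and 2.68 in the controls. The mean difference was 0.69, with SDs of 0.13 and 0.12 (n = 3 each), and control 2 here lay beside the other controls. The ratio of Clock to Cry2 was 2.05, 2.51 and 2.12 against 1.23, 1.95 and 1.80. The ratio of Per2 to Dbp was 0.26, 0.18 and 0.11 against -1.46, -0.18 and -0.24. That of Per3 to Dbp was barely apart, at 0.860 in mAktDKO 2 and 0.854 in control 4. The remaining pair, Per1 to Per2, was 3.04, 3.66 and 3.67 against 3.85, 3.73 and 3.82, close between mAktDKO 3 and control 3. These ratios were examined after the values of the members had been seen.

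**Figure D4:**
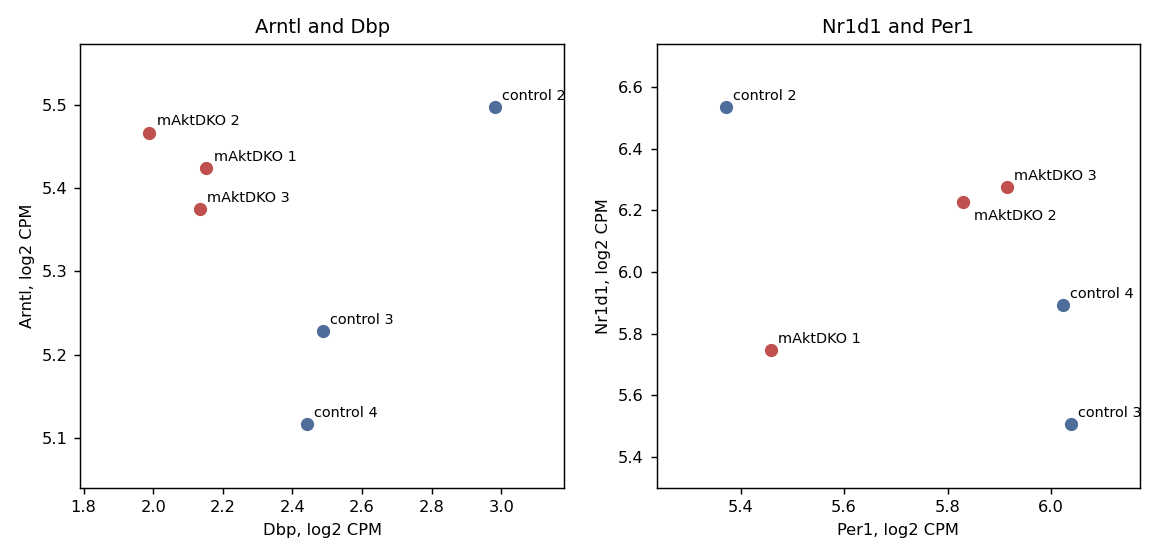
Log2 CPM of Arntl (y axis) against Dbp (x axis) on the left and of Nr1d1 (y axis) against Per1 (x axis) on the right, one point per mouse (red, mAktDKO; blue, control floxed). On the left the mAktDKO mice lie above and to the left of controls 3 and 4, with control 2 high in both genes; on the right control 2 is the highest in Nr1d1 and the lowest in Per1.

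Levels of different members were compared as CPM per kilobase of exon. The order of the means over the 6 mice was Nr1d1 at 24.7, Nr1d2 at 21.4, Arntl at 13.2, Per1 at 9.85, Clock at 9.34, Cry1 at 7.76, Cry2 at 5.57, Dbp at 2.81, Per3 at 1.35 and Per2 at 0.748 CPM per kilobase. The REV-ERB genes were thus the most abundant messages among the members in these muscles, and Per3 and Per2 the least. The ranges over mice overlapped between Nr1d1 and Nr1d2, and between each neighbour in the run from Arntl to Cry2. They did not overlap between Nr1d2 and Arntl, Cry2 and Dbp, Dbp and Per3, or Per3 and Per2.

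Accessory regulators of the clock were looked at next, a list of 13 genes of which 11 were tested, with Rorb and Ciart too low. At an adjusted p under 0.05 there were 0 of 11, and at an unadjusted p under 0.05 there was 1 in each direction (edgeR), near the 11.4% higher and 13.1% lower of all genes. The median log2 fold change was -0.07. Npas2, a close relative of Clock that can take its place, was at 12.4, 12.9 and 12.7 CPM in mAktDKO and 6.43, 9.26 and 11.3 CPM in the controls. All mAktDKO mice were above all controls (log2 fold change 0.49, SE 0.18, adjusted p = 0.149, edgeR), and control 2 was the lowest, as it was for Clock. Tef, which like Dbp encodes a D-box factor, was at 103, 83.9 and 113 CPM against 131, 120 and 113 CPM (-0.28, SE 0.12, adjusted p = 0.179, edgeR). Hlf, the third D-box factor of the family, differed by 0.10 on the log2 scale (adjusted p = 0.689, edgeR) and was named for its family after the values were seen.

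The enzymes that phosphorylate or ubiquitinate clock proteins numbered 12 tested of 13, with 0 at an adjusted p under 0.05 and a median of -0.02. They include Gsk3a and Gsk3b, kinases that Akt phosphorylates, and the casein kinases that act on PERIOD proteins. Usp2, a deubiquitinase with rhythmic expression, was at 119, 129 and 150 CPM against 143, 181 and 185 CPM (log2 fold change -0.35, adjusted p = 0.138, edgeR). Csnk1e, casein kinase 1 epsilon, was at 40.6, 42.5 and 49.6 CPM against 42.3, 36.2 and 33.1 CPM (0.25, adjusted p = 0.222, edgeR). The chromatin cofactors of the clock, 10 of 10 tested, also had 0 at an adjusted p under 0.05 and a median of 0.11. Crebbp, an acetyltransferase, had 0.21 (adjusted p = 0.152, edgeR) and Kdm5a, which binds the CLOCK and ARNTL dimer, -0.20 (adjusted p = 0.160, edgeR).

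Genes with a rhythmic message in muscle numbered 13, all tested. Their median log2 fold change was -0.18, with 0 of 13 at an adjusted p under 0.05 and 5 at an unadjusted p under 0.05, all 5 lower in mAktDKO, a direction and level that 13.1% of all genes had. Tcap, a titin-binding protein of the Z-disc, was at 570, 506 and 679 CPM in mAktDKO and 1541, 820 and 815 CPM in the controls. It showed the same order of mice as Dbp among the controls, with control 2 the highest (log2 fold change -0.86, SE 0.24, adjusted p = 0.0875, edgeR). Tsc22d3, which glucocorticoids induce, was at 303, 277 and 332 CPM against 363, 381 and 432 CPM (-0.37, SE 0.10, adjusted p = 0.0856, edgeR).

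Glucocorticoids rise and fall over the day and set the phase of peripheral clocks, so their target genes were listed as well. Of the 10 genes, all tested, 9 had a log2 fold change below 0, as 47.5% of all tested genes did, and the median was -0.29. At an unadjusted p under 0.05 there were 4 of 10, all lower in mAktDKO, beside 13.1% of all genes (edgeR). Groups without overlap, with mAktDKO lower, were seen for 4 of 10, beside 16.6% of all genes. Of the genes named here, Tsc22d3 is in this list as well as the one before. Usp2 is in the rhythmic list as well as that of the enzymes, and Ucp3 is in the rhythmic and the fasting lists. Fkbp5, which encodes a co-chaperone of the glucocorticoid receptor, was the one gene with an adjusted p under 0.05 among the 84 tested genes of the 9 clock and state lists, where 1.18% of all genes passed that level, so the count is near the background. It was at 23.0, 29.2 and 34.5 CPM in mAktDKO and 95.9, 55.3 and 75.1 CPM in the controls. Every mAktDKO mouse was below every control, and the log2 fold change was -1.38 (SE 0.21, adjusted p = 0.0315, edgeR), short of the threshold of 0.01. The summed level of the list was 1026 to 1186 CPM in mAktDKO and 1252 to 1407 CPM in the controls, without overlap. The summed level of the rhythmic genes was also apart (1557 to 1681 against 2097 to 2594 CPM). Its separation rests on Tcap (506 to 679 against 815 to 1541 CPM), without which the summed ranges overlap. The sums of the other 7 clock and state lists overlapped, the core clock genes among them (381 to 455 against 392 to 439 CPM). Of single genes 31.1% did not overlap, but no such share was formed for sums of lists, so these sums have no background here. The part of these sums in the values of the clock genes was not tested.

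Genes that respond to temperature, to fasting and to handling were examined because each can differ with the conditions at collection. Among 8 temperature-responsive genes the median was 0.34, and 0 had an adjusted p under 0.05. Rbm3, a protein induced by cold, was at 55.6, 72.3 and 59.0 CPM against 42.2, 40.9 and 48.2 CPM (log2 fold change 0.51, adjusted p = 0.0602, edgeR), and Hsph1, a heat shock protein, had -0.27 (adjusted p = 0.0833, edgeR). The other genes of the list went in both directions, with Hspa1b at 1.41 (adjusted p = 0.125, edgeR), Hspa1a at 1.44 (adjusted p = 0.185), Dnajb1 at 0.90 (adjusted p = 0.245), Hsp90aa1 at 0.17 (adjusted p = 0.389), Hspa8 at -0.02 (adjusted p = 0.931) and Cirbp, like Rbm3 induced by cold, at -0.32 (adjusted p = 0.307). Hspa1a, Hspa1b and Dnajb1 were high in mAktDKO 3, where Hspa1a was at 65.7 CPM beside 9.34 to 16.4 CPM in the other mice. Among 6 fasting-responsive genes the median was 0.03, with Ucp3 at -0.59 (adjusted p = 0.161, edgeR) and Angptl4 at 1.33 (adjusted p = 0.171, edgeR). Angptl4 was at 5.96, 10.8 and 1.65 CPM against 2.45, 2.26 and 2.65 CPM, high in mAktDKO 1 and 2 and lowest in mAktDKO 3, and the adipocyte marker Adipoq was high in the same mice (16.9, 21.9 and 5.69 against 5.94, 4.60 and 9.53 CPM). Among 8 immediate-early genes the median was 0.38. Egr1, induced within minutes by stimulation, was at 71.1, 22.2 and 108 CPM against 28.6, 19.4 and 6.20 CPM (1.88, adjusted p = 0.108, edgeR). Fos was at 114, 19.1 and 199 CPM against 54.1, 50.8 and 9.30 CPM (1.54, adjusted p = 0.248, edgeR), so mAktDKO mice 1 and 3 were the high ones for both genes. Their part in the values of the clock genes was not tested.

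**Figure D5:**
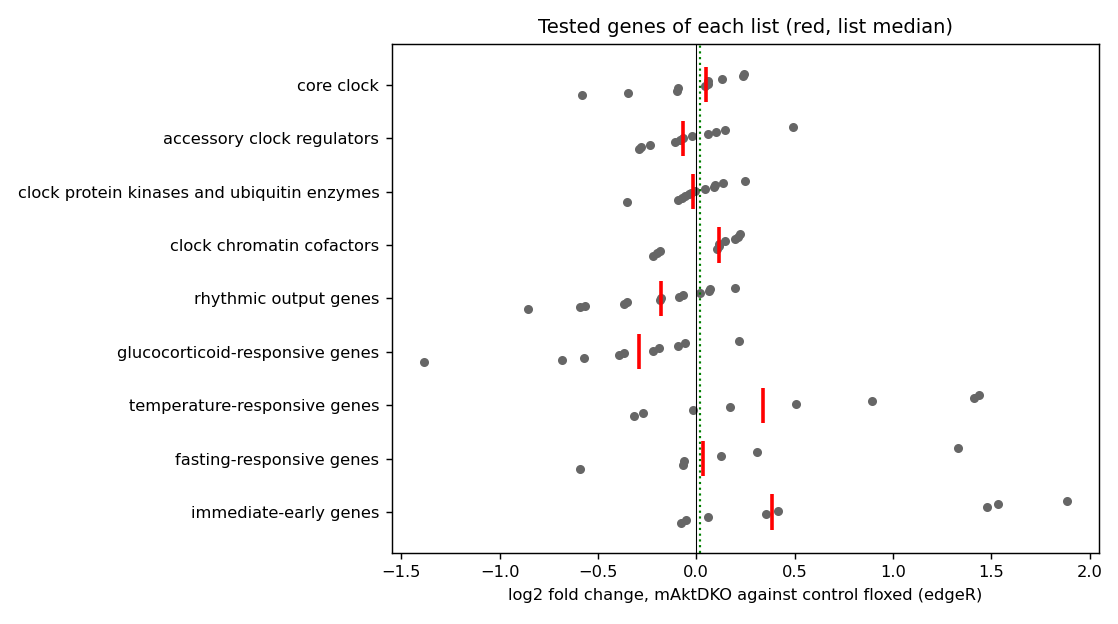
Log2 fold change of mAktDKO against control floxed (x axis) for each tested gene of 9 lists (rows); grey points are genes, red bars list medians, and the dotted line the median of all tested genes. The core clock genes centre on 0.05, the glucocorticoid-responsive genes on -0.29 with Fkbp5 at -1.38, and the immediate-early genes on 0.38.

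Markers of fibre and cell types were summed in each mouse, and 0 of their genes had an adjusted p under 0.05. The summed level of 10 fast fibre markers was 131282 to 146116 CPM in mAktDKO and 150476 to 161298 CPM in the controls, with Myh1 at a log2 fold change of -0.51 (adjusted p = 0.0539, edgeR) and Tnni2 at -0.59 (adjusted p = 0.0557, edgeR). The summed level of 5 macrophage markers was 52.5 to 64.8 against 35.4 to 51.5 CPM, with Ptprc at 0.64 (adjusted p = 0.125, edgeR) and Cd68 at 0.93 (adjusted p = 0.141, edgeR). The ranges of both lists were apart between the groups. Without Myh1, however, those of the fast fibre markers overlap, and without Ptprc those of the macrophage markers do. The ranges overlapped for slow fibre markers (680 to 1317 against 607 to 884 CPM), fibro-adipogenic cells (18280 to 21736 against 7284 to 18401 CPM), endothelium (404 to 470 against 334 to 434 CPM) and adipocytes (149 to 232 against 128 to 156 CPM). None of the defining markers of these lists was at 0 in a mouse. Their median log2 fold changes were 0.44 for slow fibres, 0.57 for fibro-adipogenic cells, 0.29 for endothelium, 0.51 for macrophages, 1.04 for adipocytes and -0.21 for fast fibres. The members with the smallest p were Tnni1 at 0.83 (adjusted p = 0.141, edgeR) and Myh7 at 0.90 (adjusted p = 0.152, edgeR) for slow fibres, Dcn at 0.57 (adjusted p = 0.0539) and Pdgfra at 0.25 (adjusted p = 0.148) for fibro-adipogenic cells, and Fabp4 at 0.35 (adjusted p = 0.0941) and Adipoq at 1.16 (adjusted p = 0.154) for adipocytes. For endothelium they were Cdh5 at 0.32 (adjusted p = 0.173) and Emcn at 0.46 (adjusted p = 0.174, edgeR). The part of these markers in the values of the clock genes was not tested.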

How the data were processed

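EDL of 3 mice per genotype was sequenced after directional library preparation. The authors mapped the reads to mm10 with STAR (2.6.1b in the submitters' processing notes) and deposited the estimated counts of RSEM 1.3.1, unscaled, for 24411 gene symbols. Among the deposited values, 3.36% to 4.09% of those of a mouse were not whole, and 0 of the 60 values of the members. The columns of the controls carry the numbers 2 to 4 where the labels have 1 to 3, so each stands for its group alone. No column was a copy of another (chi-square per gene 7.57 to 69.8).

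The estimated counts were rounded, filtered by the filterByExpr function (at least 10 counts) and scaled with TMM factors. They were then tested in edgeR 4.0.16 (R 4.3.3) by its quasi-likelihood F-test, with Benjamini-Hochberg adjustment over the 12892 tested genes. A gene was called at an adjusted p under 0.01; the study took this level in DESeq2 together with a condition on q, which was not applied here. SE is the log2 fold change divided by the square root of F, and log2 CPM uses a prior count of 2. The script was tested on simulated data in which 200 genes changed 2-fold, more than any member differed. It returned the simulated fold changes closely but missed more of the changed genes than its first pass mark allowed, and the mark was lowered. Changes of the size seen in the members were not simulated. Exon lengths and overlaps came from GENCODE M21, which matched 23376 symbols.

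The members and lists were chosen with earlier results of these data known. Named are the 10 members, Akt1 and Akt2, and from each other list the genes with an adjusted p under 0.05 or otherwise the 2 with the smallest p. Hlf, Gsk3a, Gsk3b and the remaining temperature-responsive genes were named outside this rule, after their values were seen. Rorb and Ciart were named as too low to test, and Sphk2, Thra, Gm45355 and D930015M05Rik for the exon bases they share with members. Also named, for Dbp and Arntl, are the 5 other genes with the smallest root mean square difference in centred log2 CPM. Alternatives were DESeq2 1.42.0, other scalings, filters and thresholds, and leaving out each mouse. Phenotype data of the study were not analysed here. The result of a further marker list is not reported here.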

Additional observations from a re-analysis of the deposited data

How the results depend on the processing

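The number of core clock genes called was 0 under every alternative run. The number of all genes called was 3, and it was 330 with the Wald test of DESeq2 (95 higher, 235 lower), 341 with the independent filter of DESeq2, an alternative added after seeing the data, 18 with robust edgeR, 32 without a filter, 152 at an adjusted p under 0.05, and 0 to 8 when 1 mouse was left out. It was 0 without any one of the mAktDKO mice, where 2441, 1871 and 2794 genes had an unadjusted p under 0.05, and 8 without control 2. DESeq2 gave Per2 and Dbp no adjusted p (with its own filter, Per2 only).

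Scaling by library totals moved the median over all tested genes from 0.02 to 0.16 (log2) and that of the members from 0.05 to 0.19. Per1 (0.034) and Nr1d2 (0.035) then turned above 0, though relative to the median of all genes both stayed at -0.12. When 1 mouse was left out, the median of the members was -0.056 to 0.049, below 0 without control 3 (-0.056), control 4 (-0.0038) or mAktDKO 3 (-0.031). Members without overlap were then 3 to 5, where 35.8% to 44.5% of all genes did not overlap, and 2 with DESeq2 size factors or library totals. The sign turned in Per1 (-0.29 to 0.031), Per3 (-0.13 to 0.21), Cry1 (-0.016 to 0.12) and Nr1d1 (-0.15 to 0.39), and the cause was not tested. Arntl, Clock, Per2, Cry2 and Dbp kept their sign under all alternatives. No paired analysis was possible because the numbers of the control columns do not match those of the labelled control samples.

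At 39 to 111 counts, Per2 and Dbp are the members whose values the depth limits most. The design has 3 mice a group, and no time of collection is stated for these muscles.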

Other observations

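Genes outside the clock lists followed the pattern of Dbp over the 6 mice closely. The nearest of the tested genes, by the root mean square difference in centred log2 CPM, were St3gal5 (0.046), a ganglioside synthase, Pacsin3 (0.052), Trpm4 (0.053), a cation channel, Trim54 (0.054), a sarcomeric ubiquitin ligase, and Arfgap2 (0.057), where the size of the pattern of Dbp itself was 0.327. The nearest to Arntl, whose own size was 0.136, were Meaf6 (0.038), Bend3 (0.041), Arpin (0.043), Coil (0.049) and Cirh1a (0.050). These genes were chosen for their likeness to the member, so the order of mice they share with it is no separate result.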
